A study of Mus musculus with 10 samples.

Results

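Blood libraries of mice under sleep loss were chosen by the share of their counts that came from haemoglobin genes, a measured value of these same libraries. The haemoglobin-poor set was every library in which the summed counts of Hba-a1, Hba-a2, Hbb-bs and Hbb-bt made up under 1% of the total, and the haemoglobin-rich set was every library above 3%. The rule placed all 10 libraries of the series, 3 in the poor set and 7 in the rich set. The poor libraries were the control at 0 h (Con), sleep deprivation for 48 h (SD 48 h) and a previously described sleep restriction method for 48 h (SASD 48 h). The rich libraries were SD 6, 12 and 24 h and SASD 6, 12, 24 and 120 h. All mice were C57/BL6J, with age and sex not given in the sources used here, and each library held RNA pooled from the blood of 3 mice of a group. Blood was drawn behind the eye under pentobarbital into EDTA tubes, and the labels name the cell type as leukocyte. How SD and SASD were carried out is not given in the sources used here. Every group had 1 library, so p-values measured the spread between pooled libraries of different groups within a set. That spread holds differences of method and time, and part of it may be technical. The poor set held the 0 and 48 h libraries and the rich set those of 6, 12, 24 and 120 h. No time was in both sets, so the split and the time of collection cannot be told apart. Each set held libraries of both methods.

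Mature red cells of mammals have no nucleus and make no new RNA. The RNA that red cells still hold is found mainly in reticulocytes, the youngest red cells in blood, which carry large amounts of globin messenger RNA and shed their organelles and ribosomes within days. Haemoglobin is built from alpha-type and beta-type globin chains and from haem, which is made in mitochondria from glycine through the enzyme ALAS2 and completed by ferrochelatase. GATA1 and KLF1 drive these genes through GATA and CACCC motifs in their promoters and enhancers.

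The stretches just before the start sites of 5 genes are shown for their motif letters, and no level or call below rests on them. The genes are 2 haemoglobin genes, the haem synthesis gene Alas2, the membrane skeleton gene Epb42, and Rsad2, an interferon-stimulated gene. Each stretch is the 250 bases before the RefSeq start on GRCm38.p6, written 5′ to 3′ on the gene's strand. The windows lie at chr11:32283422-32283671 (plus strand), chr7:103827929-103828178 (minus), chrX:150547167-150547416 (plus), chr2:121036878-121037127 (minus) and chr12:26456453-26456702 (minus). Capitals mark a GATA motif (AGATAA, or the same with T as the first base, G as the last base, or both), a CACCC motif (CCACACCC, or the same with G as the third base) or an interferon response motif (a pair of GAAA words with any pair of bases between them), on either strand.
Hba-a1: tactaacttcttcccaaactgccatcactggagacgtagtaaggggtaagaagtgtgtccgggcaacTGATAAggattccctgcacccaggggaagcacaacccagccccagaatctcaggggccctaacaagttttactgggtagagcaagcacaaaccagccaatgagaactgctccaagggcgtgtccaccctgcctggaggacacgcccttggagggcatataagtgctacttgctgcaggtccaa
Hbb-bs: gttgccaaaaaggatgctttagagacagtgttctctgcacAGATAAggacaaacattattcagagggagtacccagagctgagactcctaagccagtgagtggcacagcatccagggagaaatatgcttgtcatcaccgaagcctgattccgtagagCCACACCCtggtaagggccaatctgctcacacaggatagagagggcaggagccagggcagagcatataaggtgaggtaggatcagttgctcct
Alas2: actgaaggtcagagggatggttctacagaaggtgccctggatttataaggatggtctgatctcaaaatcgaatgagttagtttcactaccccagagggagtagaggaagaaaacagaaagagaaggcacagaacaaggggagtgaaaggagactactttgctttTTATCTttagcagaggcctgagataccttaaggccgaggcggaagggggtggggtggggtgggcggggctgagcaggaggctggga
Epb42: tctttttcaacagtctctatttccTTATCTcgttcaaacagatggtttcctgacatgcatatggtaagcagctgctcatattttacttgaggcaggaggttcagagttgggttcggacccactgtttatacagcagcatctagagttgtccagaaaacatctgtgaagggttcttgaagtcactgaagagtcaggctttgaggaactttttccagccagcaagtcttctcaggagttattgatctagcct
Rsad2: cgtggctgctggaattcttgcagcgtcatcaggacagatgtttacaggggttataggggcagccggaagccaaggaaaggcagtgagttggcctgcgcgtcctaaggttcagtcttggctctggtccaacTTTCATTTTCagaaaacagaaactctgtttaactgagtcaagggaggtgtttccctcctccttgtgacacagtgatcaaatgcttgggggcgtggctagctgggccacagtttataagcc
In Hba-a1, Hbb-bs, Alas2 and Epb42 a GATA motif began 183, 210, 86 and 226 bases before the start. Hbb-bs also held a CACCC motif 93 bases before it, and Rsad2 held 1 interferon response motif 120 bases before it and no GATA motif. Of all 27025 RefSeq promoters, 29.7% held a GATA motif in this window, 5.35% a CACCC motif and 3.46% an interferon response motif. Of the 13982 genes tested across the split, 10483 had a promoter in the table, and 21.1% of these held a GATA motif. A match is a description of these letters, not a site of binding.

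The 4 haemoglobin genes chose the sets, so their values are a description with no test. Of the poor libraries, Con had a haemoglobin share of 0.727%, SD 48 h one of 0.316% and SASD 48 h one of 0.275%. Among the rich libraries, SD 6 h reached 6.50%, SD 12 h 4.199% and SD 24 h 5.64%. SASD 6 h reached 6.07%, SASD 12 h 5.54%, SASD 24 h 6.96% and SASD 120 h 3.57%. In bulk RNA, fewer cells of a type and less RNA per cell cannot be told apart, here and for every cell type below. Con was the library nearest the rule's limit from below and SASD 120 h from above, and they lay 4.91-fold apart. No exact Clopper-Pearson 95% interval of a share was wider than 0.0179 percentage points on a side, for counting error alone. Depth moved with the split: totals were 13927134 to 27501393 in the poor set and 7825120 to 11141786 in the rich set.

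**Figure D1:**
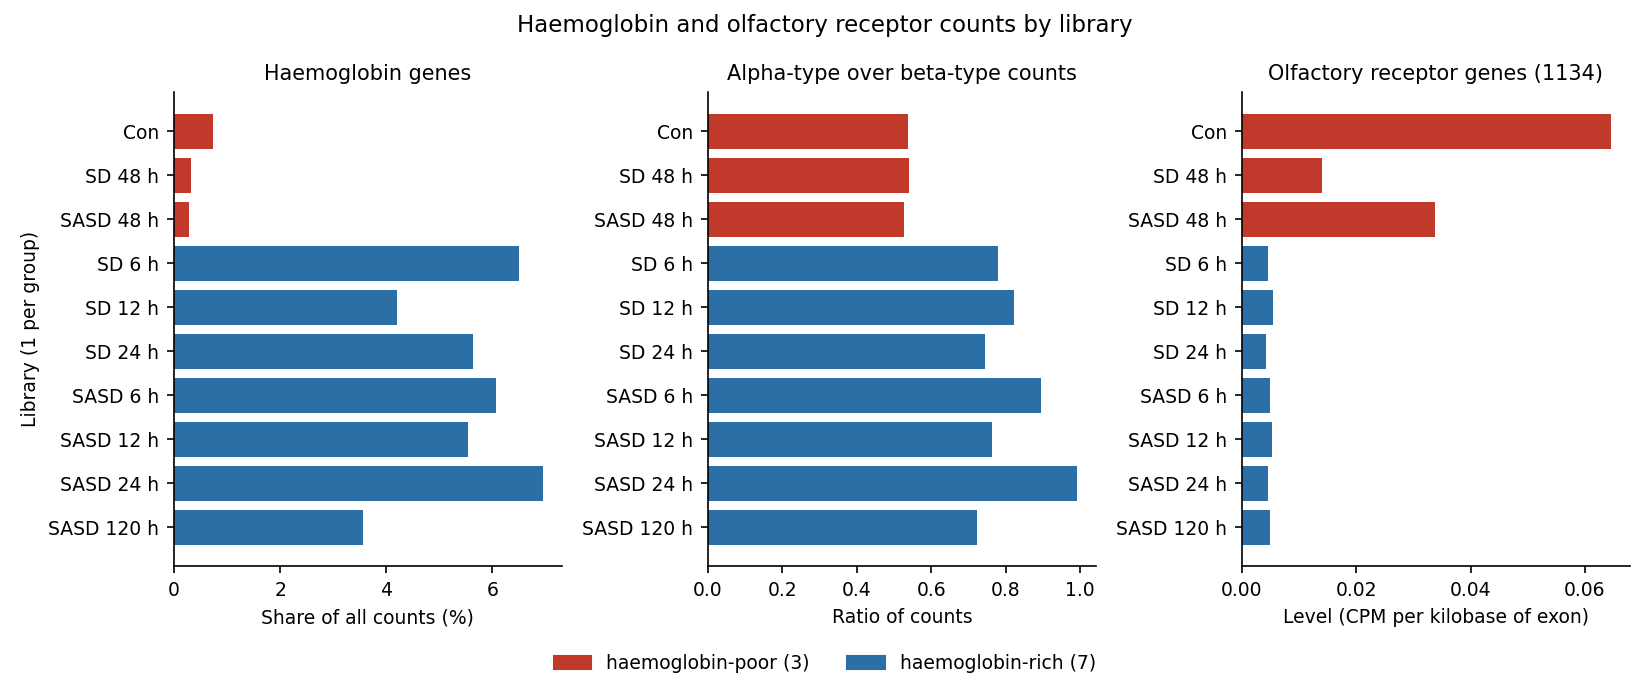
Bars show, for each library (1 per group), the haemoglobin share of all counts in percent, the ratio of alpha-type to beta-type haemoglobin counts, and the level of 1134 olfactory receptor genes in CPM per kilobase of exon, with the 3 haemoglobin-poor libraries in red and the 7 haemoglobin-rich ones in blue. The poor libraries are low in the first panel, at 0.525 to 0.541 in the second, and high in the third.

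The balance between the haemoglobin chains also differed between the sets. Hba-a1 (chr11:32283511-32284465, mm10) had 1668, 755 and 640 TMM-scaled CPM, meaning CPM (counts scaled to equal library size) after trimmed-mean scaling, in Con, SD 48 h and SASD 48 h. In the rich set its level ran from 11736 in SASD 120 h through a median of 21024 to 35668 in SASD 24 h. Hbb-bs (chr7:103826534-103828096) had 3581, 1669 and 1372 CPM in the same 3 libraries, and 17197, 29274 and 36229 as the lowest, median and highest of the 7. Con had 0.538 alpha-type counts per beta-type count, SD 48 h had 0.541 and SASD 48 h 0.525. The ratio was 0.779 for SD 6 h, 0.822 for SD 12 h and 0.744 for SD 24 h, and it was 0.895 for SASD 6 h, 0.762 for SASD 12 h, 0.992 for SASD 24 h and 0.723 for SASD 120 h. The sets did not overlap in the ratio, which is no test because the same counts made the sets. Hba-a1 and Hba-a2 are near-identical copies, as are Hbb-bs and Hbb-bt. Reads that fit both copies were not counted, so each gene's level, and this ratio, are uncertain to that extent.

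Across all genes, 3 libraries were compared with 7 by edgeR's quasi-likelihood test with Benjamini-Hochberg adjustment at 0.05. The split was drawn on counts of these same libraries, so the calls describe which genes part along it. Of 13982 genes tested, 1376 were called lower in the poor set (9.84%) and 1121 higher (8.02%), together 17.9%. Genes were tested if they averaged 10 or more counts over all 10 libraries, and the poor libraries were the deeper ones. Within the rich set alone 12842 genes met that minimum, and 337 of the higher calls had a mean under 1 CPM there. The number called higher, here and in the lists below, is therefore partly fixed by the filter. In scaled CPM 1273 genes had sets that did not overlap with the poor set lower (9.1%) and 1139 with it higher (8.15%). At least 2-fold differences made up 559 of the lower and 402 of the higher calls. Scaling by library totals alone gave 784 lower and 3444 higher calls and moved the median over all genes from 0.04 to 0.28 on the log2 scale, so the direction of small differences depends on the scaling. Without Con the calls were 768 lower and 414 higher, and without SASD 48 h they were 498 and 454. Of the 42 genes called at least 8-fold lower, 26 were in the haemoglobin and erythroid lists below. These 26, like the 1376 and the 1273, include the 4 haemoglobin genes, whose place was fixed by the rule. The same lists held 76 of all 1376 lower calls, and 117 of the 12842 genes tested within the rich set.

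Part of the haem and iron genes lay lower. Of 24 tested, 10 were called lower in the poor set, beside 9.84% lower over all genes. The list's median log2 difference was -0.19 beside 0.04 for all genes, and it was 0.05 when libraries were scaled by totals alone. Alas2 (chrX:150547375-150570638), which makes the first and rate-limiting step of haem synthesis in red cells, had 401, 157 and 146 CPM in Con, SD 48 h and SASD 48 h. SD 6 h had 4356 CPM, SD 12 h 2640 and SD 24 h 3743, while SASD 6 h had 4413, SASD 12 h 3664, SASD 24 h 8013 and SASD 120 h 1694. The sets lay far apart, by -4.12 ± 0.55 (SE) on the log2 scale. Fech, which puts iron into the porphyrin ring, lay lower by a log2 difference of -3.88 ± 0.50. Slc25a37 and Slc25a39, carriers of the inner mitochondrial membrane that serve iron and glutathione import, had log2 differences of -2.26 ± 0.43 and -3.21 ± 0.38. The ferritin chains Fth1 and Ftl1, which store iron in most cells, had smaller differences of -0.95 ± 0.23 and -1.46 ± 0.21, and Fth1 lost its call without Con (-0.96) or without SASD 48 h (-0.77).

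Levels were also set against haemoglobin itself. The rule used this denominator, so a gene whose level differs less than haemoglobin must lie higher in the poor set on this scale, and the ratios are a description. Alas2 had 5.25 to 6.38 counts per 100 haemoglobin counts in the poor set and 5.05 to 9.49 in the rich set, and these ranges overlapped. Bpgm, the enzyme that makes the haemoglobin regulator 2,3-bisphosphoglycerate, had 3.50 to 3.74 against 2.86 to 3.55, which overlapped too. Fth1 had 23.9 to 60.3 against 3.60 to 6.94. The erythroid transcription factor list, many of whose members leukocytes also express, had 17.2 to 42.9 against 2.13 to 3.68.

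Most genes of the red cell membrane and its skeleton were lower. Of 27 tested, 19 were called lower, beside 9.84% of all genes, with a median log2 difference of -2.05. Slc4a1, the chloride and bicarbonate exchanger known as band 3, had 65.8, 61.0 and 20.0 CPM in Con, SD 48 h and SASD 48 h and 207, 756 and 1520 as the lowest, median and highest of the rich set. Epb42, which ties band 3 to the skeleton, had 3.61, 4.08 and 1.23 CPM against 12.6, 48.1 and 73.2. The log2 differences of Slc4a1 and Epb42 were -3.98 ± 0.61 and -3.85 ± 0.57, and neither gene overlapped between the sets. Epb41, the protein 4.1 gene, had -2.83 ± 0.45. Kel, a blood group antigen, had 0.315 to 1.005 CPM in the poor set and 5.39 to 17.2 in the rich set. Stom and Bsg, membrane proteins found in many cell types, had differences of -0.79 ± 0.29 and -0.92 ± 0.15, and Stom was not called.

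**Figure D2:**
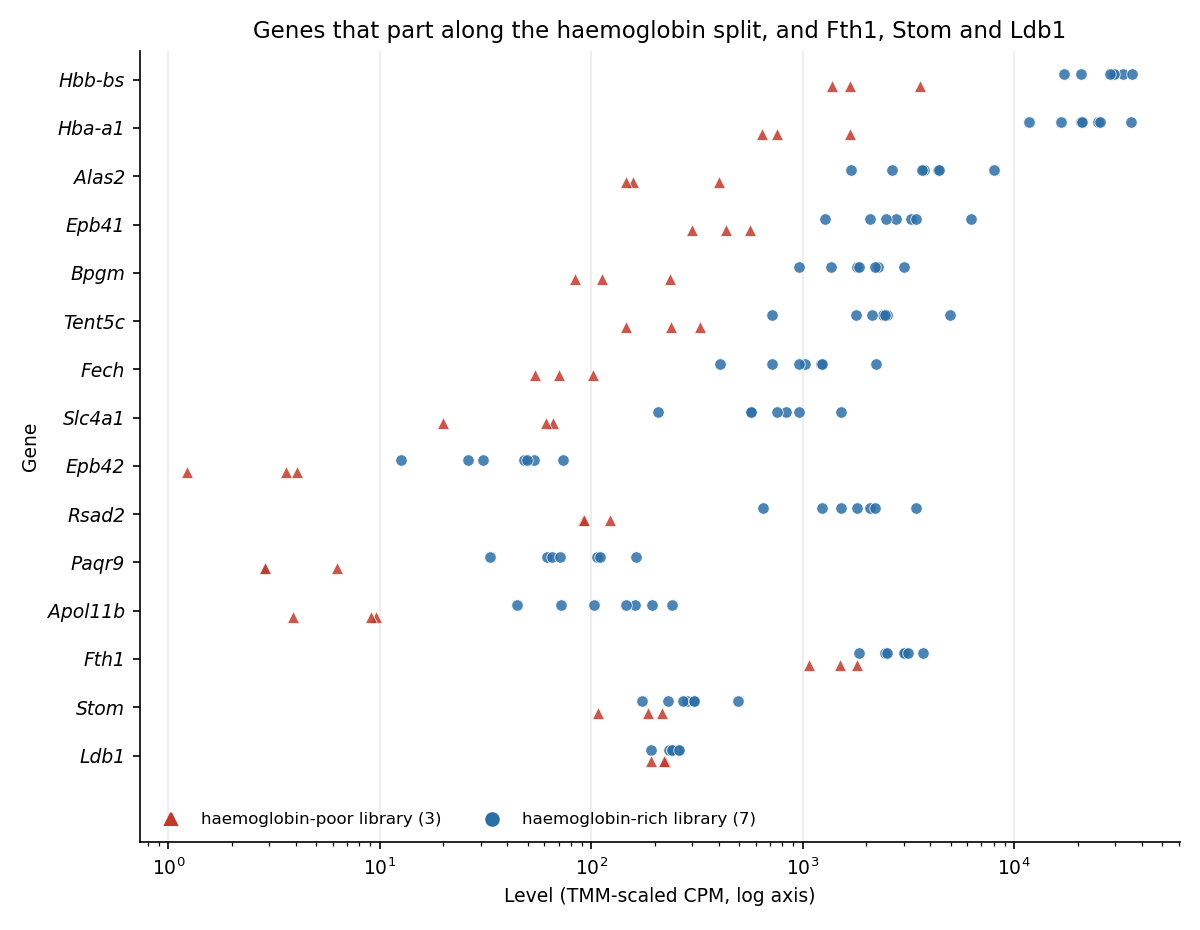
Each point is the TMM-scaled CPM of a gene in 1 library on a log axis, red triangles for the 3 haemoglobin-poor and blue circles for the 7 haemoglobin-rich libraries. The sets are apart for the 2 haemoglobin genes and for Alas2, Epb41, Bpgm, Tent5c, Fech, Slc4a1, Epb42, Rsad2, Paqr9 and Apol11b, nearly touch for Fth1, and overlap for Stom and Ldb1.

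Of 30 genes of reticulocyte maturation, which clear organelles and turn over proteins through ubiquitin, 21 were called lower, beside 9.84% of all genes. Their median was -0.97. Tent5c, a poly(A) polymerase, had 327, 239 and 146 CPM in Con, SD 48 h and SASD 48 h and 719, 2389 and 4989 as the lowest, median and highest of the rich set. Ube2o, a ubiquitin ligase that removes ribosomal proteins from reticulocytes, had a log2 difference of -3.04 ± 0.50. Bnip3l, the mitophagy receptor known as Nix, had -2.42 ± 0.36, and Ubb, a ubiquitin gene of all cells, -1.60 ± 0.21. Of the red cell enzymes and soluble proteins, 14 of 16 were called lower, beside 9.84% of all genes, with a median of -1.69. Bpgm had 234, 112 and 83.6 CPM against 961, 1849 and 2999.9, a log2 difference of -3.75 ± 0.44. The peroxide enzymes Cat and Gpx1 had -1.59 ± 0.30 and -1.64 ± 0.27. Hk1, the red cell hexokinase, had -0.85 ± 0.24 and lost its call without Con (-0.88), SASD 6 h (-0.82) or SASD 48 h (-0.69). Hbq1a and Hbq1b, theta-type globin genes, had differences of -4.02 ± 0.40 and -2.69 ± 0.39.

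Of the 14 erythroid transcription factors tested, 6 were called lower, beside 9.84% of all genes, with a median of -0.91. In 2 of the 14 the sets did not overlap, beside 9.1% of all genes. E2f2, a cell cycle regulator, had 90.7, 112 and 89.9 CPM against 119, 196 and 361, a difference of -1.07 ± 0.28 that lost its call without Con or without SASD 48 h (-1.01 each). Ldb1 and Lmo2, partners of GATA1 that other blood cells also express, had -0.17 ± 0.10 and -0.22 ± 0.10 and were not called. Bcl11a, the repressor of fetal globin genes and a B cell factor, had 0.03 ± 0.18 and was not called.

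Genes outside the red cell lists, given here together with Ube2c from within them, also lay far apart along the split. Rsad2 (chr12:26442746-26456452), which encodes the antiviral enzyme viperin, had 123, 91.2 and 92.2 CPM in Con, SD 48 h and SASD 48 h. SD 6 h had 2078 CPM, SD 12 h 1235 and SD 24 h 1808, while SASD 6 h had 2191, SASD 12 h 1512, SASD 24 h 3415 and SASD 120 h 646. Its log2 difference was -4.17 ± 0.48, and its count per 100 haemoglobin counts was 1.96 to 3.87 in the poor set and 1.93 to 4.04 in the rich set. Paqr9, a receptor-family membrane protein (chr9:95559657-95568023), had 6.28, 2.85 and 2.87 CPM against 33.1 to 163. Apol11b, of the apolipoprotein L family (chr15:77633946-77643286), had 9.55, 9.11 and 3.89 CPM against 44.7 to 240.04. Nusap1, a spindle protein of the mitosis list, had 6.94, 6.18 and 3.36 CPM against 22.03 to 66.8. Ube2c, which drives the ubiquitin chains of mitotic exit and stands in the maturation list, had 5.84, 5.37 and 2.35 against 19.1 to 80.01. The mitosis list as a whole did not follow these: 2 of 24 were called lower and 2 higher, beside 9.84% and 8.02% of all genes, with a median of 0.30, which was -0.04 without SD 48 h. Kif11, the spindle motor, had 1.11 ± 0.26, and Cenpe, a kinetochore motor, 0.82 ± 0.23. Kif11 lost its call without Con (1.04), and Cenpe without Con (0.89), SD 48 h (0.65), SASD 12 h (0.79) or SASD 48 h (0.91). Gnas, the stimulatory G protein alpha subunit, and Sec61g, a subunit of the protein channel of the endoplasmic reticulum, were chosen after their values were seen and had -2.21 ± 0.20 and -1.64 ± 0.19.

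Platelet genes moved in the same direction as the red cell genes. The platelet list took 0.740% of counts in Con, 0.724% and 0.442% in the 48 h libraries and 0.835% to 1.96% in the rich set, so the sets were apart. Of 17 tested, 13 were called lower, beside 9.84% of all genes, with a median of -1.31. In 6 of the 17 the sets did not overlap with the poor set lower, beside 9.1% of all genes. Nrgn, a calmodulin-binding protein abundant in platelets, had a log2 difference of -2.28 ± 0.36, and the von Willebrand factor receptor subunits Gp9 and Gp5 had -1.74 ± 0.34 and -1.62 ± 0.35. Replication-dependent histone genes were called lower in 7 of 9, beside 9.84% of all genes, with a median of -1.34. Hist1h1c had -1.79 ± 0.38. Without SASD 48 h, Gp5 (-1.41) and Hist1h1c (-1.59) lost their calls. The part that platelet counts play in the differences of the red cell lists was not tested.

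The neutrophil, monocyte, T cell and B cell lists did not part in this way. None of the 20 neutrophil or 18 monocyte genes was called by edgeR, DESeq2 or limma-voom, and 0 had an unadjusted edgeR p under 0.05. Monocyte genes took 0.673% of counts in SD 48 h, 0.679% in SASD 48 h, 0.295% in Con and 0.212% to 0.633% in the rich set. Of their 18 log2 differences 2 were below 0, with a median of 0.34. Of the 20 T cell genes 0 were called by edgeR or limma-voom and 2 by DESeq2, with 4 at an unadjusted edgeR p under 0.05. Of the 18 B cell genes 1 was called lower, Ebf1 at -0.92 ± 0.21, and it lost its call without SASD 48 h (-0.95). Neutrophil genes took 1.41% of counts in SD 48 h, 0.299% in Con, 0.332% in SASD 48 h and 0.237% to 0.849% in the rich set, and their median of 0.46 was -0.85 without SD 48 h. Of the 14 NK and cytotoxic cell genes 4 were called higher, beside 8.02% of all genes, with a list share of 0.0762% to 0.0917% in the poor set and 0.0503% to 0.0732% in the rich set. Gzma, a cytotoxic granule protease, had a log2 difference of 0.55 ± 0.11, and Ccl5, a chemokine, 0.40 ± 0.09, which lost its call without Con (0.37).

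Differences within the 7 rich libraries were not used to form the sets, and they were tested on their own. The lists were chosen with earlier results of these data known, so the p-values below are not independent support for them. The share of counts of each of 19 lists was set against the haemoglobin share over the 7 libraries, with exact two-sided permutation p-values adjusted over the 19 lists. The red cell enzymes gave Pearson r = 0.961 and Spearman rho = 1.0, with an exact p of 0.000397 for each, the smallest that 7 libraries can give (adjusted p = 0.00377). The membrane and skeleton list gave r = 0.906 and rho = 1.0 (exact p = 0.000397 for each, adjusted p = 0.00377). The maturation list gave r = 0.903 (exact p = 0.00119, adjusted p = 0.00754) and rho = 0.964 (exact p = 0.00278, adjusted p = 0.0176). The haem and iron list gave r = 0.897 (exact p = 0.00198, adjusted p = 0.00754) and rho = 0.929 (exact p = 0.00675, adjusted p = 0.0256). Other globins gave r = 0.870 (exact adjusted p = 0.0415), but rho = 0.857 did not pass (exact adjusted p = 0.0754). Erythroid transcription factors did not pass, at r = 0.745 (exact adjusted p = 0.0776) and rho = 0.714 (exact adjusted p = 0.189). Platelets did not pass either, at r = 0.616 (exact adjusted p = 0.237) and rho = 0.536 (exact adjusted p = 0.373). SASD 120 h and SD 12 h lay farthest from the median haemoglobin share, and without both r was 0.963 for the enzymes, 0.919 for the membrane list, 0.900 for maturation, 0.849 for haem and iron and 0.615 for other globins. With 5 libraries these have no test here.

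Interferon-stimulated genes passed as a list with Rsad2 in it and not without it. The list gave r = 0.903 (exact p = 0.00198, adjusted p = 0.00754) and rho = 0.929 (exact adjusted p = 0.0256). Rsad2 alone made up 30.3% to 70.1% of the list's counts in the rich libraries and 6.47% to 11.9% in the poor ones. The other 24 genes took 0.111% to 0.165% of counts in the rich set and 0.105% to 0.154% in the poor set, which overlapped. Without Rsad2, a choice made after its values were seen, r was -0.41 (exact p = 0.368, adjusted p = 0.500) and rho was -0.18 (exact p = 0.713). Across the split 6 of 25 were called lower, beside 9.84% of all genes, among them Isg15, a ubiquitin-like protein, at -2.20 ± 0.35 and Ifit1, which binds viral RNA, at -1.08 ± 0.18.

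**Figure D3:**
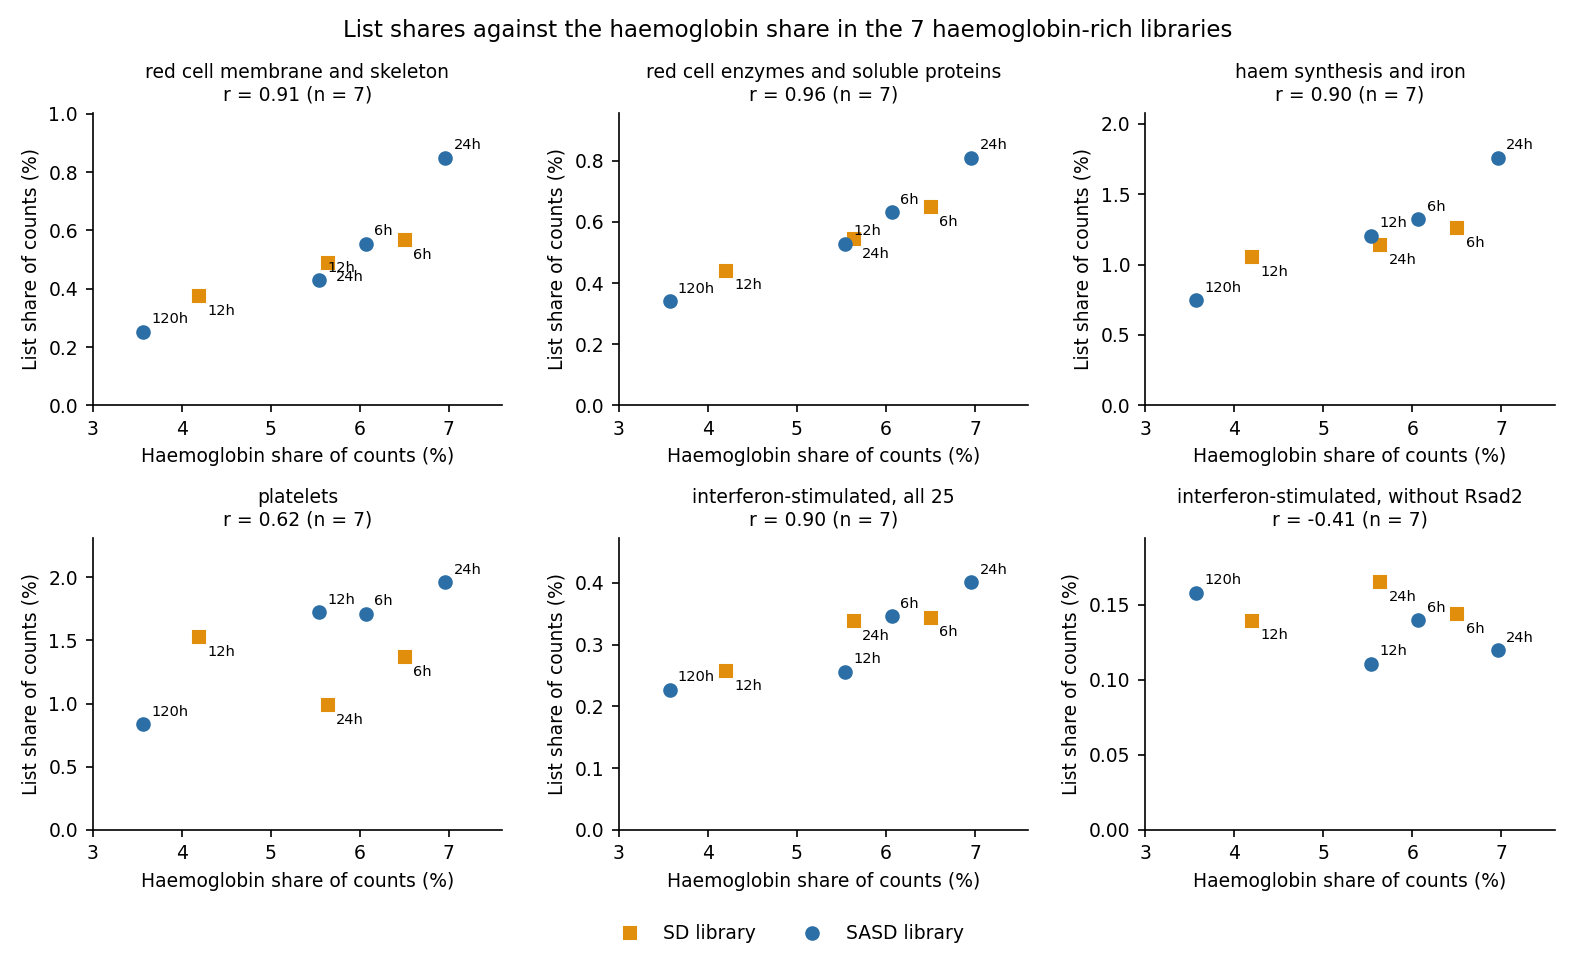
Each point is 1 of the 7 haemoglobin-rich libraries, with the haemoglobin share of counts on the x axis and the share of a gene list on the y axis, both in percent, labelled by time (SD squares, SASD circles). The 3 red cell lists climb from SASD 120 h to SASD 24 h, platelets scatter more, and the interferon list climbs with Rsad2 in it (r = 0.90) and not without it (r = -0.41).

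Gene by gene, 53 of 12842 genes rose with the log2 haemoglobin share over the 7 libraries (0.413%) and 0 fell, by edgeR's quasi-likelihood test with Benjamini-Hochberg adjustment at 0.05. At an unadjusted p under 0.05, 873 had a positive and 450 a negative slope, and of all slopes 47.3% were positive. limma-voom called 66 rising and DESeq2 216 rising and 1 falling. Hba-a2, 1 of the 53, is part of the haemoglobin share itself. With it, 26 of the 53 were in the haemoglobin and erythroid lists, which held 117 of the genes tested. Slopes ran from 0.91 to 2.56, in log2 units of CPM per log2 unit of haemoglobin share. All 53 were lowest in SASD 120 h and highest in SASD 24 h. No gene was called without SASD 120 h, SASD 24 h, SASD 6 h or SD 6 h in turn (714, 582, 1060 and 1492 at an unadjusted p under 0.05), and 25 rose without SASD 12 h, so these calls rest on single libraries.

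Of the red cell lists, 7 of 27 membrane genes and 9 of 16 enzyme and soluble protein genes were among the 53, beside 0.413% of all genes. The haem and iron list had 5 of 24 and the maturation list 4 of 30. Erythroid transcription factors had 0 of 14 and other globins 0 of 2. Epb42 had 12.6 CPM in SASD 120 h, a median of 48.1 and 73.2 CPM in SASD 24 h, with a slope of 2.30 ± 0.27 (edgeR adjusted p = 0.0203). Ank1, the ankyrin that anchors band 3 to the membrane skeleton, had a slope of 2.42 ± 0.31. Bpgm rose with a slope of 1.51 ± 0.19 and Car2, carbonic anhydrase, with 2.02 ± 0.25. Hagh, of the glyoxalase pathway, rose with 1.46 ± 0.15, and Nt5c3, which breaks down pyrimidine nucleotides as RNA is degraded in reticulocytes, with 1.31 ± 0.15. Of the haem genes, Fech had 2.08 ± 0.27 and Alas2 1.90 ± 0.29. Outside the haemoglobin and red cell lists, Apol11b rose with 2.39 ± 0.23 (edgeR adjusted p = 0.0176). By the same test Rsad2, of the interferon list, rose with 2.06 ± 0.27 (adjusted p = 0.0236) and Paqr9 with 1.98 ± 0.29 (0.0321). Cd36, a fatty acid and thrombospondin receptor that platelets, monocytes and reticulocytes carry, rose with 1.44 ± 0.18. Ube2c, of the maturation list, rose with 1.78 ± 0.27 and Nusap1, of the mitosis list, with 1.60 ± 0.25. Gnas, Sec61g and Fth1, which were lower across the split, had slopes of 0.48 ± 0.23, 0.81 ± 0.17 and 0.55 ± 0.30 that did not pass. Of the 53 genes 42 had a promoter in the RefSeq table, and 40.5% of these held a GATA motif as marked above, beside 35.5% of the 93 matched genes of the 5 erythroid lists and 21.1% of the tested genes. A CACCC motif stood in 2.38% of the 42, in 7.53% of the 93 and in 6.88% of the tested genes.

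The poor libraries also held counts in gene families best known from tissues other than blood. Olfactory receptors, the odour receptors of the nose, had 0.0646 CPM per kilobase of exon in Con. SD 48 h had 0.0140, SASD 48 h 0.0338 and the rich libraries 0.0041 to 0.0055. At an equal depth of 7825120 counts, 53.3%, 18.5% and 39.2% of the 1134 genes had a count in Con, SD 48 h and SASD 48 h, and 2.56% to 3.88% in the rich libraries. Vomeronasal receptors, which sense pheromones, were at 0.0903, 0.0318 and 0.0547 CPM per kilobase against 0.0137 to 0.0276. Of 11 such families, 6 had sets that did not overlap per kilobase, and the keratins, defensins, voltage-gated potassium channels, protocadherins and homeobox clusters overlapped. Thinned to equal depth, 4 of the 11 were apart, since the collagens and the glutamate and GABA-A receptors then overlapped. Without genes above 1 CPM in a rich library, 9 of the 11 were apart at full depth. That limit drops genes for a high level in the rich set alone, so it lowers the rich level by choice and is no further result. Single abundant members did not always follow their family. Vmn2r97 had 43.8, 30.2 and 32.7 CPM against 23.7 to 44.3, and the epithelial keratin Krt80 had 40.9, 75.4 and 78.02 against 34.7 to 89.3. Of the 28 genes tested under the collagen name pattern 10 were called higher, beside 8.02% of all genes. Genes were tested if they averaged 10 or more counts over all libraries, and the poor libraries were the deeper ones. Among the rich libraries alone, 17 genes of the pattern met that minimum. The others entered through their counts in the poor set, so the number called higher is partly fixed by the filter. The pattern also caught Col4a3bp, a ceramide transfer protein and no collagen, at 0.29 ± 0.08, a call lost without Con (0.31), SD 6 h (0.29), SD 48 h (0.28) or SASD 48 h (0.30).

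A wider set showed how these counts were spread. Of the coding genes, 5427 had 0 counts in all 7 rich libraries, so that any count of theirs lay in the poor set by choice. The 4824 on autosomes had 0.0985 CPM per kilobase of exon in Con, and SD 48 h had 0.0169 and SASD 48 h 0.0412. The order of the 3 libraries was not that of haemoglobin, which was lowest in SASD 48 h. The 383 X-linked genes of the set lay at 0.454 of the autosomal level in Con (95% counting interval 0.426 to 0.485), 0.465 in SD 48 h (0.370 to 0.577) and 0.447 in SASD 48 h (0.402 to 0.497). The 163 Y-linked genes of the set had 0.0275 CPM per kilobase in Con, and SD 48 h had 0.0038 and SASD 48 h 0.0106, lower than the X-linked genes in each. The level per kilobase was 0.147 in Con for autosomal genes in the shortest class of exon length (up to 993 bases) and 0.0848 in the longest (over 4091 bases). In SD 48 h these were 0.0242 and 0.0147, and in SASD 48 h 0.0543 and 0.0363. A level equal to the autosomal one over all annotated exons would make up 1.11%, 0.190% and 0.463% of the counts of the 3 libraries. Whether genomic DNA in the RNA gave these counts was not tested.

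**Figure D4:**
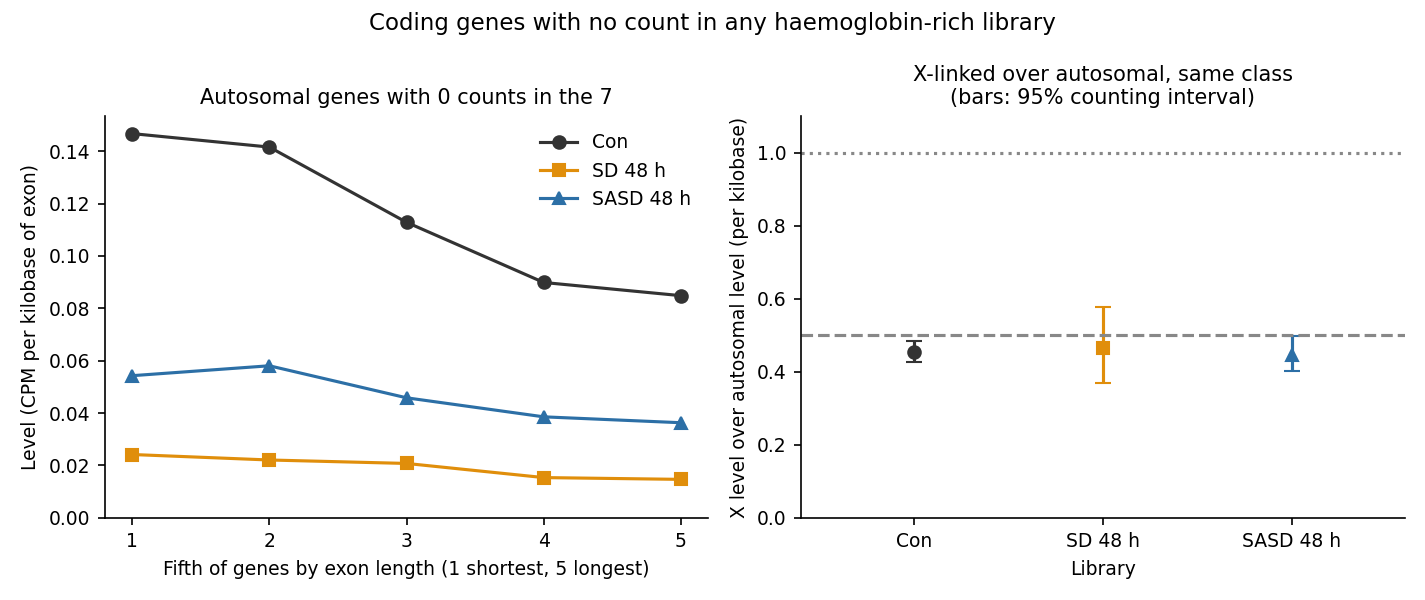
The left panel plots the level in CPM per kilobase of exon of autosomal coding genes with 0 counts in the 7 haemoglobin-rich libraries, in classes of exon length, in Con, SD 48 h and SASD 48 h. The right panel gives the X-linked over the autosomal level with 95% counting intervals, at 0.447 to 0.465 in the 3 libraries, with guide lines at 0.5 and 1.

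Predicted genes with shared sequence, chosen after their values were seen, had many counts in the poor libraries. Gm10800 (chr2:98666547-98667301, mm10) had 12181 counts in Con, 861 in SD 48 h, 6214 in SASD 48 h and 0 to 18 in the rich libraries. Summed over Gm10800 and 10 others (Gm10801, Gm21738, Gm10715, Gm10717 to Gm10722 and Gm17535), the level was 579, 83.1 and 329 CPM in the poor libraries and at most 2.62 in the rich ones. The others share from 93 to 168 of the 492 words of 24 bases in the Gm10800 transcript. Bases 539 to 658 of the transcript are shown because they hold sequence that the genes share. Capitals mark bases in words of 24 that both Gm10801 and Gm21738 also hold.
Gm10800: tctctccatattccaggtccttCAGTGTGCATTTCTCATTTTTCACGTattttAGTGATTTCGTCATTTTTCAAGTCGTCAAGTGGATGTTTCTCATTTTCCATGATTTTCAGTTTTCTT
Reads that fit several of these genes were not counted, so each gene's level is uncertain.

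Genes called higher in the poor set were also set against the level of the silent genes. Of the 1120 called higher with a known exon length, 207 were higher by at most 5 times the silent autosomal level per kilobase (a mean of 0.0522 CPM over the 3 libraries) and 913 by more. An abundant gene can pass this limit with a small relative difference, and the part that background counts play was not tested. Alb, the albumin of plasma that liver makes, had 7.57, 6.59 and 4.10 CPM in Con, SD 48 h and SASD 48 h and 0 to 0.279 in the rich set. Per kilobase Alb lay 38.0, 176 and 48.9 times above the silent level. Elane and Ctsg, proteases of neutrophil precursors, were chosen after their values were seen. Of the 3 poor libraries only SD 48 h was high, at 11.7 and 7.65 CPM per kilobase, beside at most 0.480 in Con and SASD 48 h. In Con and SASD 48 h Elane lay at 4.88 and 3.98 times the silent level and Ctsg at 2.86 and 6.63 times. Their levels in the rich set are not given here. Vasn, a TGF-beta binding membrane protein, had 10.7, 5.23 and 10.1 CPM against 1.02 to 2.11. The joining segments Iglj3, Ighj2 and Igkj1 of the antibody genes had log2 differences of 2.20 ± 0.29, 1.76 ± 0.23 and 1.39 ± 0.23. Rps27, a ribosomal protein, had 806, 1028 and 780.1 CPM against 186 to 391.9, a difference of 1.43 ± 0.19, and shares sequence with its copy Rps27rt at 1.73 ± 0.26, so reads may be divided between them. Of the 89 ribosomal protein genes tested 19 were called higher and 3 lower, beside 8.02% and 9.84% of all genes.

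Exon length moved with the split as well. Among coding genes with a mean of at least 8 CPM over the 10 libraries, 34.3% of the 577 with exons over 12000 bases were called higher in the poor set and 5.03% lower. Of the 2640 with 2000 to 4000 bases, 1.63% were called higher and 14.1% lower. The median log2 difference was 0.23 in the longest bin, -0.04 at 2000 to 4000 bases and 0.18 in the 134 genes of up to 1000 bases. Coding genes over 8000 bases took 24.3%, 21.5% and 24.5% of counts in Con, SD 48 h and SASD 48 h and 19.1% to 20.3% in the rich set. These are shares of all counts, so the larger haemoglobin share of the rich set lowers them there. SASD 24 h, at 20.3%, had 6.96% of its counts in haemoglobin, and SD 48 h, at 21.5%, had 0.316%. The gap between these libraries is no larger than this denominator makes. Macf1, a cytoskeletal linker with 31402 exonic bases, had 1297, 816 and 1193 CPM against 461 to 582. Smg1, a kinase of RNA surveillance, and Birc6, a giant inhibitor of apoptosis, had log2 differences of 0.99 ± 0.11 and 0.91 ± 0.10. Huwe1, a ubiquitin ligase, had 0.85 ± 0.11. These 4 were chosen after their values were seen, and none had a slope within the 7 that passed. The part that exon length, depth or background counts play in the single gene differences was not tested.

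**Figure D5:**
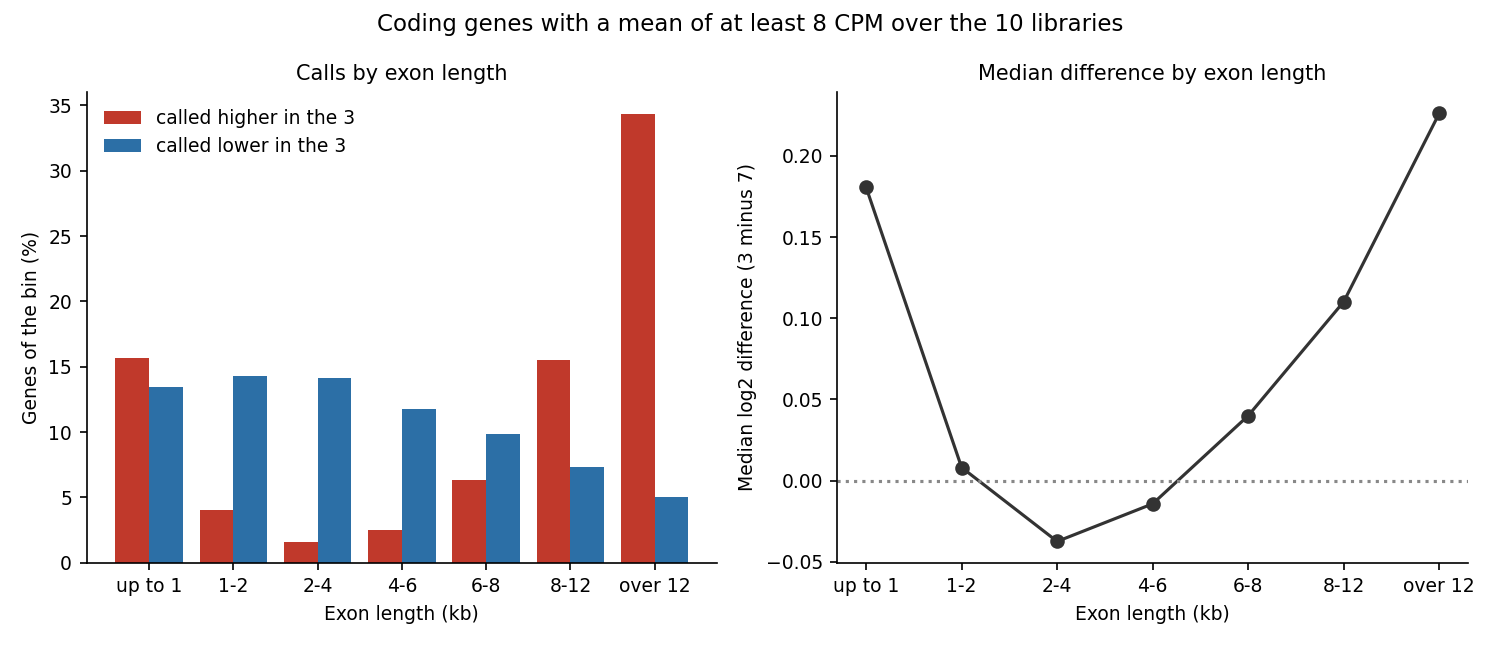
Coding genes with a mean of at least 8 CPM over the 10 libraries are binned by exon length in kilobases. The left panel gives the percent of each bin called higher or lower in the 3 haemoglobin-poor libraries, and the right panel the median log2 difference (3 minus 7), which runs from -0.04 at 2 to 4 kb to 0.23 over 12 kb.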

How the data were processed

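RNA was sequenced from blood in 10 libraries, 1 for each of 10 groups, each pooled from 3 mice. Trimming by the authors used Trimmomatic 0.39 and alignment to mm10 used STAR 2.7.9a, according to the submitters' processing notes. Read pairs over exons were counted by featureCounts 2.0.3, per the file headers, without strand and leaving out reads that fit several places or genes. The deposited values were raw counts of 32285 genes, 50 of them without a symbol. Antisense and overlapping genes, and genes with similar copies, are therefore uncertain. Exon lengths and positions came from GENCODE M21, and promoters from RefSeq (GRCm38.p6), whose starts lie inside the GENCODE gene for the shown Hba-a1, Hbb-bs, Alas2 and Epb42.

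From these counts, genes averaging 10 or more counts were fitted in edgeR 4.0.16 (R 4.3.3, TMM, quasi-likelihood F test, Benjamini-Hochberg at 0.05), 3 libraries against 7 and, within the 7, as a slope on the log2 haemoglobin share, a fit added after seeing the data. The residual degrees of freedom were 8 and 5. List shares were correlated with scipy 1.17.1 (Python 3.11.15). limma 3.58.1 (voom) and DESeq2 1.42.0 were alternatives, beside other scalings, count minimums, a term for SASD, thinning to equal depth and leaving out each library. On simulated counts with a dispersion of 0.04, the 3 against 7 fit recovered 85% of 2-fold and 92% of 4-fold changes among 13982 genes, with 12 false calls. The slope fit recovered 24% and 88% among 12842 genes, for changes per log2 unit of share, with 4 false calls. The simulated libraries were independent, with the same dispersion for all genes and no differences of time or method. These figures therefore do not measure how reliable the calls in the real libraries are. Total counts ran from 7825120 to 27501393, and intervals cover counting error only.

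The sets, the gene lists and the families were chosen with earlier results of these data known. Of 386 list entries 364 matched; 20 of the 22 others were histone names. The lists covered haemoglobin and other globins, haem and iron, membrane, transcription factors, maturation, enzymes, platelets, leukocyte types, mitosis, interferon-stimulated genes, histones, mitochondrial genes, nuclear noncoding RNAs and immediate early genes. Named genes were the haemoglobin genes, the 6 most abundant of each red cell list in the rich set, the 12 largest called differences each way with sets that did not overlap and at least 5 CPM in the higher set (without predicted names), Rsad2 and Ube2c, the 2 most abundant of each background family in the poor set and the 3 largest called differences of the other lists. The 12 genes of lowest p in the slope fit were added with that fit. Not all of these are printed, and some named by the rule are not reported here.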

Additional observations from a re-analysis of the deposited data

Results flagged for a closer look

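Among the 7 rich libraries, 33 sets (the list shares, the family levels and the totals) were checked for a library standing apart by Dixon's test, which chance alone flags for about 1 in 20 sets. Erythroid transcription factors took 0.157% of counts in SASD 24 h, the next library being at 0.139%. B cell genes took 1.40% in SASD 120 h, the next being at 1.05%. Vomeronasal receptors were at 0.0137 CPM per kilobase in SASD 24 h, the next lowest library being at 0.022. Crystallins were at 3.09 CPM per kilobase in SASD 120 h, the next being at 2.54.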

How the results depend on the processing

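No paired analysis was possible because each group had 1 library and the labels give no replicate numbers to pair by; the fits with a method block below group libraries as SD or SASD. Across the split, the lower and higher calls were 784 and 3444 with library totals alone, 0 and 1 in the 24 and 48 h libraries with a method block (edgeR, 1 residual degree of freedom, 1849 at an unadjusted p under 0.05) and 498 to 1626 and 414 to 1344 when each library was left out in turn. Higher calls were 4114 with no count minimum and 660 for 48 h against 6 to 24 h. Tool changes kept both counts within 1.5 times, at 1852 lower and 1289 higher in DESeq2. Within the 7, rising genes numbered 216 in DESeq2, 26 with a term for SASD and 0 to 74 when each library was left out in turn.

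List medians were 0.048 for haem and iron, 0.054 for T cells, -0.65 for erythroid transcription factors, 0.33 for B cells, 0.39 for NK cells and -0.037 for mitochondrial genes with totals alone. In the 24 and 48 h libraries they were -3.04 for the membrane list, -0.011 for T cells and -0.052 for mitochondrial genes, and for 48 h against 6 to 24 h -2.54 for the membrane list. At a mean count of at least 100 they were -0.42 for erythroid transcription factors and -1.67 for histones. Leaving out 1 library gave -0.85 to 0.90 for neutrophils, -0.35 to -0.071 for T cells and -0.038 to 0.56 for mitosis. The lowest poor over the highest rich level was 4.77 for olfactory and 7.34 for vomeronasal receptors without genes above 1 CPM in a rich library. This limit applies to the rich set alone, so it lowers the rich level by choice.

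Within the 7, r without SASD 120 h and SD 12 h was 0.826 for interferon-stimulated genes and 0.360 for B cells (-0.53 with them); the red cell lists' values are in the report (0.615, 0.849, 0.919, 0.900 and 0.963). Over counts that are not haemoglobin, r was 0.808 for erythroid transcription factors (exact permutation, adjusted p = 0.0163), past the threshold. Without Rsad2 it was -0.41. Of single genes, Ldb1 (0.065), Lmo2 (0.024), Foxo3 (0.13), Vmn2r97 (0.21) and Kcna3 (0.12) changed sign with totals alone. Bcl11a, with a main value of 0.03, was -0.0053 in limma-voom, -0.24 in the 24 and 48 h libraries, -0.0089 for 48 h against 6 to 24 h and -0.102 to 0.19 when each library was left out in turn. Vmn2r97 was 0.11 in the 24 and 48 h libraries, and leaving out each library in turn gave it -0.20 to 0.070. Leaving out each library gave -0.088 to 0.33 for Krt222 and -0.31 to 0.013 for Kcna3. None of these sign changes was called. The causes were not tested. The 3 deeper libraries were the poor ones; thinned to equal depth, 1145 genes were lower and 813 higher.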
